A study of Mus musculus with 48 samples.

Results

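Ribosome-bound RNA of striatal astrocytes was compared between mice given MPTP and mice given vehicle. The comparison used the 4 IP libraries of the MPTP group and the 4 IP libraries of the vehicle group, chosen by their labels, which are 8 of the 48 libraries of the series. An IP library holds RNA that was pulled down with ribosomes carrying an HA-tagged Rpl22 protein (RiboTag), and an input library holds RNA of the whole cleared lysate. The labels describe the vehicle group as C57 mice with the RiboTag virus (an AAV) in the striatum for 3 weeks before RNA extraction and vehicle. The MPTP group had the same strain and virus and MPTP at 20 mg/kg in 4 doses. Both groups thus carried the tagged ribosomal protein, and no group without it was compared here. The series describes all mice as adult. The labels speak of microinjection into striatal tissue for both agents, yet state the MPTP dose per body weight, and the promoter of the tag, the interval from the last MPTP dose to RNA extraction and the number of dopamine neurons lost are not given in the sources used here. In MPTP replicate 2 the titles of the IP and the input library name different animals.

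MPTP is a protoxin. Astrocytes convert it, mainly with monoamine oxidase B (Maob), to the toxic cation MPP+, which dopamine neurons take up through the dopamine transporter and which blocks their mitochondrial respiration. Striatal astrocytes contact the dopamine terminals that are then lost. They normally clear glutamate, GABA and potassium, supply lipids and metabolites, and can shift to a reactive state with more Gfap and vimentin. RiboTag libraries follow mRNA on ribosomes in the cells that carry the tag, but some RNA of other cells remains in the precipitate.

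The 8 IP libraries held 34316801 to 61456591 counted reads, and the lowest correlation of log2 levels between any pair was 0.987. All RNA was from males: Xist had 0 to 2 reads and Ddx3y 5127 to 8589. Astrocyte markers were abundant in IP, though markers of some other cells were enriched too. By deposited FPKM, a length-scaled level, Apoe averaged 5146 in the vehicle group, Glul 1836, Clu 1817, Aldoc 1783 and Slc1a2 1463, while the microglial gene Cx3cr1 averaged 0.818 and the endothelial gene Cldn5 0.992. In an independent set of libraries, the wild-type mice of the SAPAP3 experiment, the median astrocyte marker was higher in IP than in input by 2.09 on the log2 scale and the median microglial marker lower, at -4.27. The median ependymal marker was higher there by 2.07, close to the astrocyte markers. Medians of interneuron (1.28), oligodendrocyte precursor (0.89) and oligodendrocyte markers (0.75) were also above 0, so enrichment in IP was not particular to astrocyte genes. The neuronal gene Snap25 was still at 502 FPKM in the vehicle IP, and the interneuron genes Nos1 and Slc5a7 were themselves higher in wild-type IP than in input, by 1.90 and 2.08 on the log2 scale. No marker list had a gene at 0 reads in all 8 libraries.

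Individual libraries stood apart. MPTP replicate 1 had the highest levels of interferon and chemokine genes and MPTP replicate 3 the lowest or nearly so, a contrast described with those genes below. MPTP replicate 3 also carried a run of 10 neighbouring genes on chromosome 5, from Arpc3 to Kdm2b (mm10, chr5:122391878-122989823, 598 kb), that were low in both of its libraries. These genes were singled out after their values were seen. Against the median of the 8 libraries the 10 genes lay between -1.38 and -0.74 on the log2 scale in IP, with a median of -0.90, and between -1.16 and -0.83 in input, with a median of -1.0. The 20 flanking genes lay between -0.18 and 0.21 in its IP and between -0.23 and 0.43 in its input. Atp2a2, which encodes the endoplasmic reticulum calcium pump SERCA2, was at 753 CPM (read counts scaled to library size, with TMM factors) in the IP of MPTP replicate 3 and at 1315 to 1457 CPM in the other 7 libraries. P2rx7, an ATP-gated channel, was at 9.68 CPM there and at 25.1 to 30.2 CPM elsewhere. The log2 fold change of Atp2a2 was -0.16 with this library and 0.02 without it, and that of P2rx7 was -0.27 and -0.01. The only other genes that lay below -0.70 in both libraries of this replicate, among 11253 scanned, were Ifit1, Cxcl10 and the Y-linked Eif2s3y. Eif2s3y had 135 reads in this IP library and 582 to 1138 in the others. The cause was not tested.

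**Figure D1:**
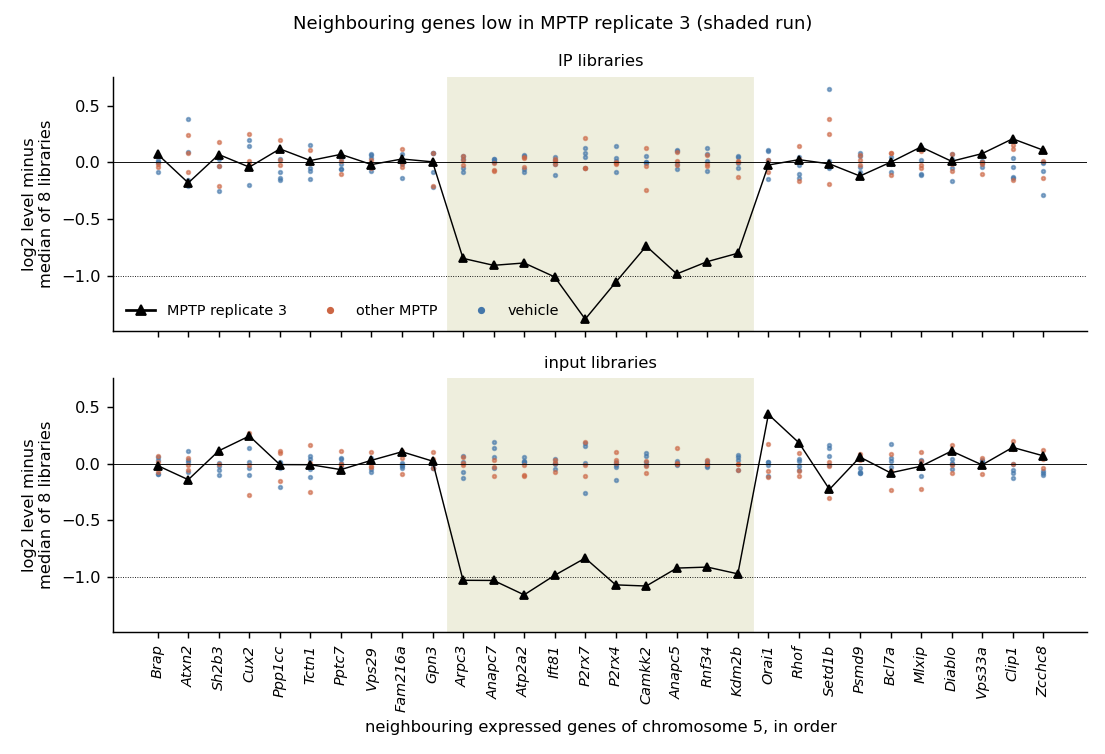
Level of 30 neighbouring expressed genes of chromosome 5, in chromosomal order, as log2 CPM minus the median of 8 libraries, for IP (top) and input (bottom). In MPTP replicate 3 (black triangles) the 10 shaded genes lie near -1 in both panels, while for these genes the other 7 libraries (dots) lie between -0.26 and 0.21. Among the flanking genes single libraries reach 0.65.

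Across the 15069 genes with enough reads to test, MPTP and vehicle differed by little. The middle 90% of log2 fold changes lay between -0.25 and 0.34, and the median was 0.01. A difference beyond 0.5 in either direction was seen for 3.12% of genes, 366 higher and 104 lower in MPTP, and beyond 1 for 35 higher and 3 lower. For genes above an average of 1 log2 CPM the 95% interval of a log2 fold change was typically 0.167 wide on each side. No gene passed an adjusted p of 0.05 in the quasi-likelihood test of edgeR (0% called), and the lowest adjusted p was 0.0852. At an unadjusted p under 0.05, 587 genes were higher (3.9%) and 1105 lower (7.33%) in MPTP, 11.2% in all. Their shapes differed: the lower genes had a median log2 fold change of -0.21 at a median level of 5.39 log2 CPM, and the higher genes 0.25 at 4.13 log2 CPM. The 4 MPTP libraries lay wholly above the 4 vehicle libraries for 299 genes (1.98%) and wholly below for 703 (4.67%).

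Both alternatives that called genes in number did so mostly in the lower direction. DESeq2 called 302 genes (2%), 50 higher (0.332%) and 252 lower (1.67%). An edgeR fit that shared 1 estimate of the spread with the 8 input libraries of the same experiment called 289 genes (1.82%), 25 higher (0.158%) and 264 lower (1.66%). This fit had no term for the animal, although IP and input libraries are numbered as pairs. The lists shared 234 genes, 77.5% of the DESeq2 calls and 81.0% of those of the larger fit. Leaving out vehicle replicate 2 gave 65 calls in edgeR, leaving out MPTP replicate 1 gave 14 and leaving out MPTP replicate 3 gave 1. Of the 14, Plin4 and Per2 were higher and 12 were lower, among them Mvd, Msmo1, Insig1, Pdgfra, Cspg4, Tril and Tlcd1.

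**Figure D2:**
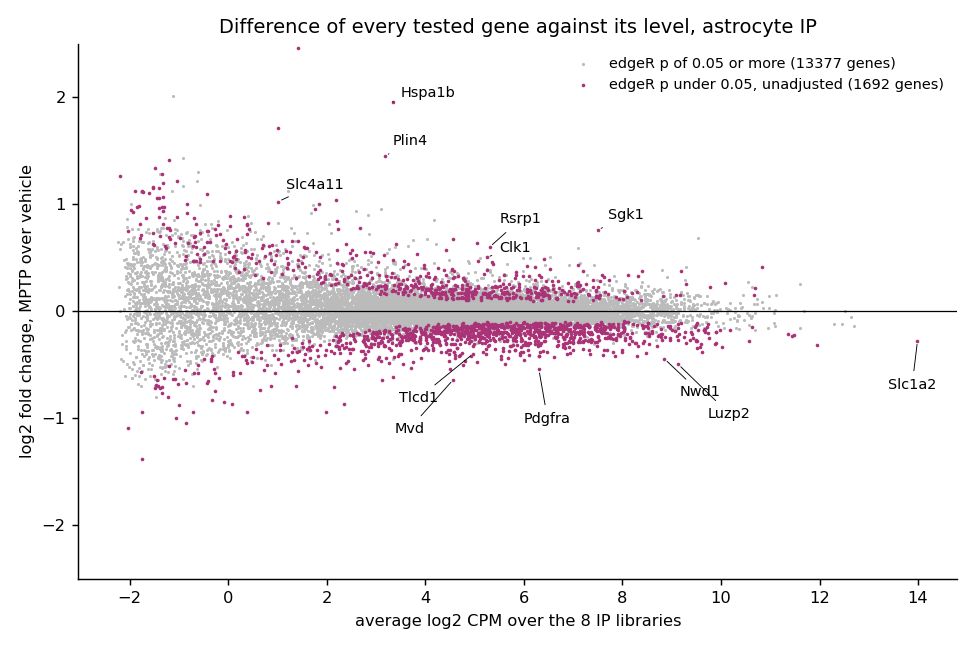
Log2 fold change (MPTP over vehicle) of each of the 15069 tested genes against its average log2 CPM in the 8 IP libraries. Purple points have an unadjusted edgeR p under 0.05 and grey points do not, and the purple points are more numerous below 0 (1105) than above it (587). No gene passed after adjustment.

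Genes enriched in the astrocyte precipitate were lower more often than all genes. Genes were put in classes by IP over input in the wild-type mice of the SAPAP3 experiment, which are not among the 8 libraries compared. Of the 1713 genes enriched over 2-fold there, 477 (27.8%) were lower in MPTP at an unadjusted p under 0.05 and 32 (1.87%) higher, against 7.33% and 3.9% of all genes. The 477 were fewer than the 603 lower genes that were within 2-fold of input there, out of 11837 such genes (5.09%). In the 388 genes enriched over 4-fold the share that was lower was 31.4%, and the median log2 fold change was -0.06 in IP and 0.09 in input. In the 1325 genes enriched 2- to 4-fold it was 26.8%, with a median of -0.10 in IP and 0.02 in input. At the other end, of the 377 genes depleted over 4-fold, 60 (15.9%) were higher and 2 (0.531%) lower, with a median of 0.32 in IP and 0.10 in input. Of the 264 genes called lower by the fit with all 16 libraries, 158 were enriched over 2-fold in wild-type IP. They were 9.22% of the 1713 enriched genes, where 1.75% of the 15069 genes were called lower. None of the 24 tested genes that this fit called higher was enriched over 2-fold.

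The summed level of the strongly depleted genes was 2225, 2115, 2927 and 2959 CPM in vehicle replicates 1 to 4 and 2833, 3837, 3192 and 3247 CPM in the MPTP replicates. The ranges overlapped, with vehicle replicates 1 and 2 lowest and MPTP replicate 2 highest. The genes enriched 2- to 4-fold summed to between 151605 and 167903 CPM in vehicle and between 138910 and 154878 CPM in MPTP. Enriched and depleted genes thus differed in opposite directions, and the part that the purity of the precipitate has in the results below was not tested. In such tissue RNA, fewer cells of a type and less RNA per cell also cannot be told apart.

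**Figure D3:**
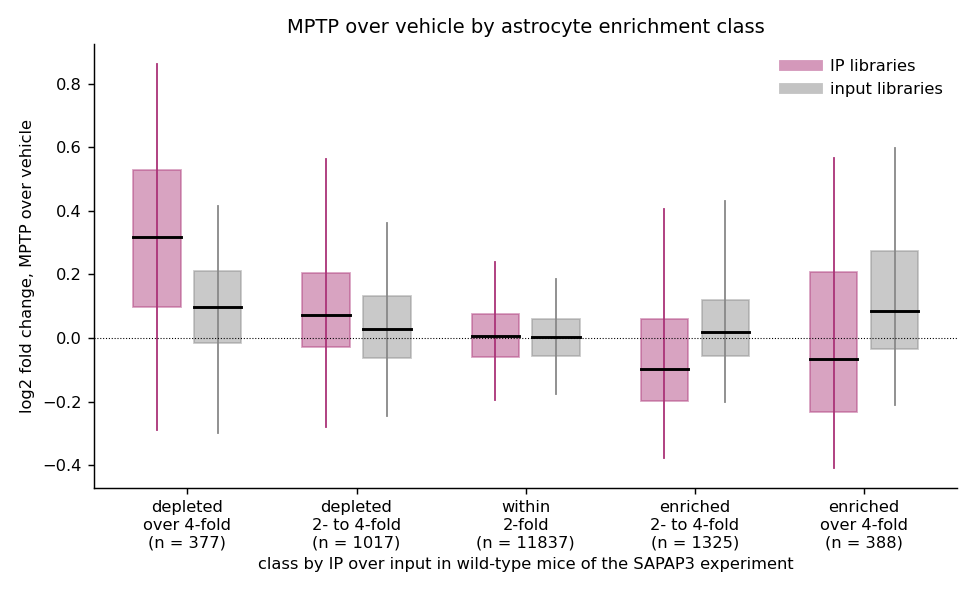
Log2 fold change (MPTP over vehicle) by class of IP enrichment in the wild-type mice of the SAPAP3 experiment, for IP (purple) and input (grey) libraries. Lines span the 5th to 95th percentile over genes, boxes the quartiles and black bars the median. The IP median goes from 0.32 in the most depleted class to -0.10 and -0.06 in the enriched classes.

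The genes with the smallest p combined a small difference with very little spread. Tlcd1 (chr11:78176711-78181909, plus strand), a membrane protein that affects phospholipid composition, was at 35.8, 35.1, 34.8 and 36.8 CPM in vehicle and 28.1, 26.6, 26.0 and 27.6 CPM in MPTP. No MPTP library reached the lowest vehicle library, and the MPTP mean was 76.0% of the vehicle mean (adjusted p 0.0852, edgeR). Gpt (chr15:76695716-76699686, plus strand), alanine aminotransferase, was at 27.0, 25.7, 27.1 and 23.2 CPM in vehicle and between 18.1 and 19.3 CPM in MPTP. Nwd1 (chr8:72646711-72717876, plus strand), an abundant astrocyte transcript with an NACHT domain, averaged 533 ± 38.0 CPM (SD, n = 4) in vehicle and 392 ± 16.5 CPM (SD, n = 4) in MPTP. Mvd (chr8:122433601-122443422, minus strand), the mevalonate pathway decarboxylase, was at 24.4, 29.2, 32 and 29.8 CPM in vehicle and 20.6, 18.2, 18.3 and 17.1 CPM in MPTP. Its log2 fold change of -0.64 ± 0.088 (SE) was among the lowest of any gene whose groups did not overlap. Thrsp, a lipogenic regulator, was at 26.2 to 28.9 CPM in vehicle and 19.5 to 21.8 CPM in MPTP.

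Clk1 and Rsrp1 were the only genes among the 15 smallest p that were higher in MPTP. Clk1 (chr1:58410189-58424066, minus strand), a kinase that phosphorylates SR splicing factors, was at 29.7, 29.2, 33.8 and 32.3 CPM in vehicle and 43.6, 46.5, 40.2 and 47.2 CPM in MPTP. Rsrp1, an arginine- and serine-rich protein, was at 29.6 to 34.5 CPM in vehicle and 38.8 to 53.7 CPM in MPTP, with MPTP replicate 3 lowest of its group. The other genes of the 15 were lower in all 4 MPTP libraries than in any vehicle library. They were Car8, which restrains the IP3 receptor (log2 fold change -0.44 ± 0.064), the glycerol kinase gene Gyk (-0.31 ± 0.048), the Notch feedback gene Nrarp (-0.49 ± 0.074), the Toll-like receptor partner Tril (-0.42 ± 0.064), the fatty acid elongase Elovl2 (-0.37 ± 0.057), the RNA-binding protein Msi2 (-0.32 ± 0.050), the polyamine acetyltransferase Sat1 (-0.37 ± 0.057) and the sphingosine-1-phosphate receptor S1pr1 (-0.38 ± 0.060). All 15 had an adjusted p of at most 0.0936 and at least 0.0852 in edgeR. In input, the log2 fold changes of the 15 genes lay between -0.21 and 0.22. Those of Tlcd1, Gyk, Thrsp and Sat1 were 0.01 to 0.03 and that of Msi2 was 0.05, opposite in sign to IP. The others had the same sign as in IP. They were Tril (-0.18 ± 0.041), Elovl2 (-0.21 ± 0.065), Clk1 (0.22 ± 0.077) and Rsrp1 (0.22 ± 0.069), and Gpt, Nwd1, Mvd, Car8, Nrarp and S1pr1, which lay between -0.11 and -0.07.

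**Figure D4:**
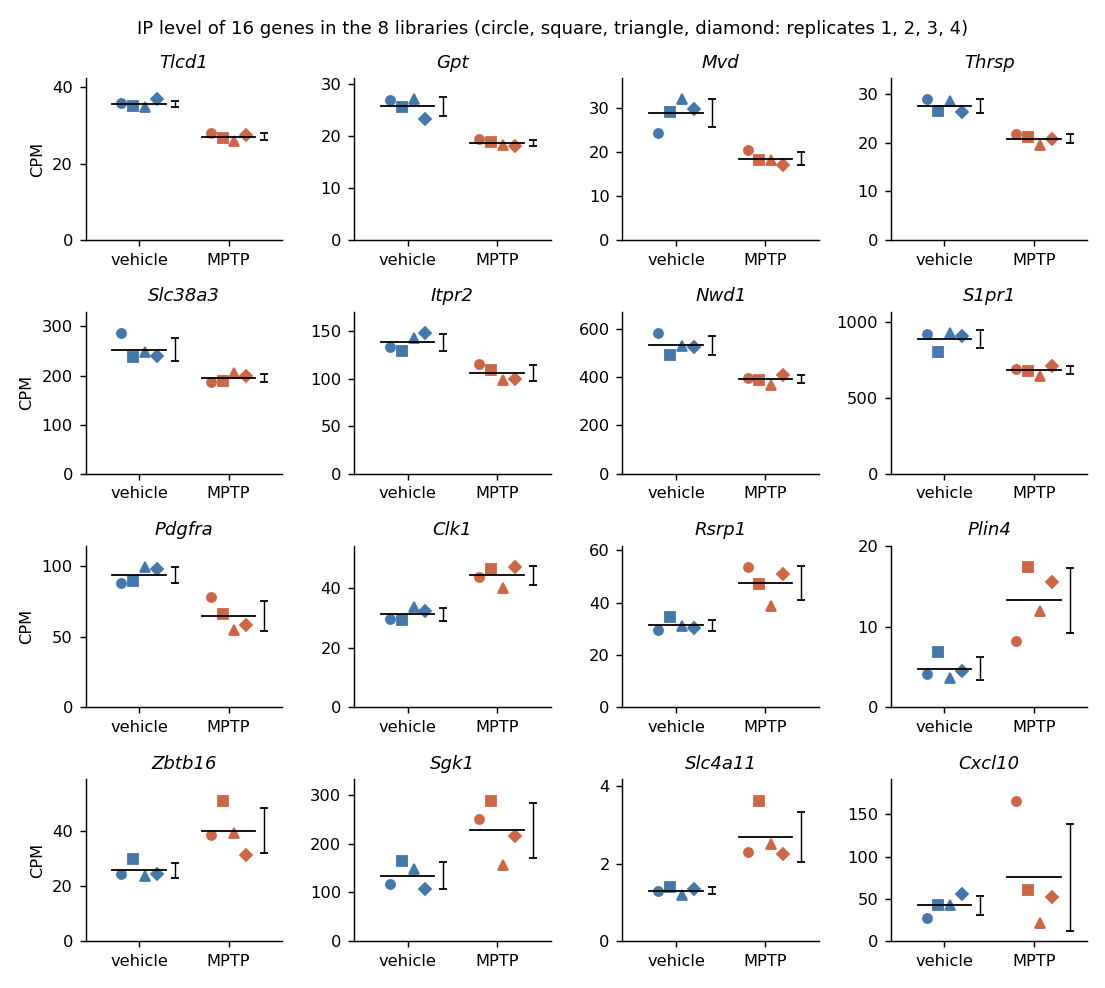
CPM of 16 genes in each IP library (blue, vehicle; orange, MPTP; symbol, replicate number), with the group mean (line) and SD (bar, n = 4). Tlcd1, Gpt, Mvd, Thrsp, Slc38a3, Itpr2, Nwd1, S1pr1 and Pdgfra lie lower and Clk1, Rsrp1, Plin4, Zbtb16 and Slc4a11 higher in MPTP without overlap; Sgk1 and Cxcl10 overlap.

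Among genes above an average of 1 log2 CPM whose groups were apart, the highest log2 fold change was that of Plin4 (chr17:56100591-56109803, minus strand), a lipid droplet coat protein. It was at 4.15, 6.92, 3.60 and 4.56 CPM in vehicle and 8.21, 17.4, 11.9 and 15.5 CPM in MPTP, 2.74-fold higher in the mean (log2 fold change 1.45 ± 0.26, adjusted p 0.0936, edgeR). The same gene differed by 1.21 on the log2 scale in input. Slc4a11, a membrane transporter of the bicarbonate carrier family, followed at 1.18 to 1.40 CPM in vehicle and 2.26 to 3.63 CPM in MPTP. Also on this list were the actin-binding protein gene Shroom1 (0.59 ± 0.15) and Plekhf1 (0.56 ± 0.12), which encodes an endosomal protein. Hexokinase 2 (Hk2) was at 3.11 to 4.15 CPM and 4.23 to 6.13 CPM, so that its groups were apart by a narrow margin.

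Some larger fold changes rested on 1 library and were singled out after their values were seen. Prph, an intermediate filament protein of peripheral and some central neurons, was at 17.5 CPM in MPTP replicate 2 and at 0.565 to 1.08 CPM in the other 7 libraries. Its log2 fold change was 2.46 with that library and -0.23 without it. Postn, a matrix protein, was at 9.94 CPM in the same library and at 0.747 to 1.23 CPM elsewhere. Its log2 fold change of 1.72 became 0.16 without it.

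The lowest log2 fold changes without overlap were those of Slc5a11, an inositol transporter (log2 fold change -0.70 ± 0.14), and Ranbp3l (-0.64 ± 0.12), an export factor for SMAD proteins. Nphs1, which encodes the adhesion molecule nephrin, was at 10.1 to 14.7 CPM in vehicle and 7.22 to 8.69 CPM in MPTP. Slc25a34, a mitochondrial carrier, was at 23.9 to 30.8 CPM and 16.6 to 20.9 CPM, and the matrix genes Lama1 and Mmp2 both differed by -0.53. Luzp2, an abundant gene of astrocytes and precursors, was at 735, 527, 712 and 650 CPM in vehicle and 452, 506, 466 and 439 CPM in MPTP. Vehicle replicate 2 lay nearest to the MPTP group for Luzp2 and Sox21, a pattern that recurred in the astrocyte genes below.

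Of 34 astrocyte markers, 32 were lower and 2 higher in MPTP, where 48.1% of all genes were lower and 51.9% higher, with a median log2 fold change of -0.21. For 16 of them the unadjusted edgeR p was under 0.05, and for 11 the groups did not overlap. Over all genes tested, 7.33% were lower at that threshold and 4.67% lay wholly below. Among the 388 genes enriched over 4-fold in wild-type IP, 31.4% were lower at that threshold. In input the median of the astrocyte markers was -0.01. The glutamate transporter gene Slc1a2, the most abundant of them, was at 19623, 13522, 17910 and 20104 CPM in vehicle and 15204, 16179, 13620 and 13804 CPM in MPTP. Vehicle replicate 2 was the lowest library of all, so the groups overlapped, and the log2 fold change of -0.28 ± 0.12 became -0.39 without it (adjusted p 0.438, edgeR). Its partner Slc1a3 was lower in every MPTP library, 2476 to 2651 CPM against 2711 to 3279 CPM. Slc7a10, which exchanges D-serine and other small amino acids, was at 69.1 to 87.9 CPM in vehicle and 56.0 to 62.9 CPM in MPTP. Among the markers with the smallest p were also the receptor Gpr37l1 (-0.34 ± 0.069), the acyl-CoA synthetase Acsbg1 (-0.31 ± 0.067) and the cystathionine synthase Cbs (-0.28 ± 0.062), all without overlap.

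Aldh1l1, a folate enzyme and common astrocyte marker, was at 459 to 462 CPM in vehicle and 355 to 444 CPM in MPTP without overlap (log2 fold change -0.22). Glul, glutamine synthetase, overlapped at 4602 to 5650 CPM and 4318 to 5113 CPM. The water channel Aqp4 was at 1266 to 1349 CPM in vehicle and at 1444, 1233, 1227 and 1231 CPM in MPTP, where replicate 1 was above and the other 3 below every vehicle library. Apoe (-0.05), Clu (0.00) and S100b (-0.08) had 95% intervals that reached from -0.24 to 0.17 at the widest. Whether Glul, Aqp4, Apoe, Clu and S100b differed from the transporter and enzyme genes of the list was not tested.

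Genes of glutamate, GABA and ion handling gave a median of -0.16, with 19 of 22 lower and 8 at an unadjusted edgeR p under 0.05. These 8 were 36.4% of the list, against 7.33% of all genes and 26.8% of genes enriched 2- to 4-fold in wild-type IP. The median enrichment of the list there was 1.81 on the log2 scale. Slc38a3, which releases glutamine for neurons, was at 286, 238, 247 and 239 CPM in vehicle and 187, 189, 205 and 198 CPM in MPTP (log2 fold change -0.38 ± 0.066, adjusted p 0.0936, edgeR). The bicarbonate cotransporter Slc4a4 was at 1020 to 1287 CPM in vehicle and 846 to 1006 CPM in MPTP. The potassium channel Kcnj10 (Kir4.1) overlapped, at 368 to 558 CPM in vehicle and 320 to 436 CPM in MPTP. Of the connexin and endfoot genes, 11 of 13 were lower with a median of -0.09. Gja1, connexin 43, was at 937 to 1066 CPM and 877 to 901 CPM.

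Of 25 sterol synthesis genes 22 had lower fitted levels in MPTP, 11 at an unadjusted edgeR p under 0.05, with a median of -0.17 in IP and -0.02 in input. Those 11 made up 44.0% of the list, where 7.33% of all genes were lower at that threshold. Among the smallest p after that of Mvd were those of the sterol oxidase Msmo1 (188 to 212 CPM in vehicle, 151 to 175 CPM in MPTP), mevalonate kinase Mvk (22.7 to 24.5 CPM and 18.2 to 21 CPM) and Insig1, which holds the sterol sensor complex in the endoplasmic reticulum (127 to 140 CPM and 90.6 to 125 CPM). None of these groups overlapped. The mean log2 level of the list was -0.01 in MPTP replicate 1 against the vehicle mean and -0.21, -0.22 and -0.27 in replicates 2 to 4, so that replicate 1 lay within the vehicle range of -0.07 to 0.08. Insig1 showed the same order, at 125 CPM in MPTP replicate 1.

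The promoters of Mvk, Mvd and Msmo1 are shown because 22 of the 25 list members were lower and 3 higher. Transcription of sterol synthesis genes is known to be driven by SREBP2 with the help of NF-Y, which binds CCAAT. Whether either factor had a part in the difference was not tested. The 250 bases before the start were taken from RefSeq (GRCm38.p6, the build of the files), and CCAAT on either strand is in capitals, reading ATTGG where it lies on the strand not printed. Mvk lies at chr5:114444019-114444268 on the plus strand, Mvd at chr8:122443423-122443672 and Msmo1 at chr8:64733579-64733828, both on the minus strand.
Mvk: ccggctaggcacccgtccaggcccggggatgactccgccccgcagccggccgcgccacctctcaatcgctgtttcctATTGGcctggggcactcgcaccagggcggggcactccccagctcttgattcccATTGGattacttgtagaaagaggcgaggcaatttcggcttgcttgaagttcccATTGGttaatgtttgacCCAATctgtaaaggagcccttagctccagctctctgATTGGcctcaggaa
Mvd: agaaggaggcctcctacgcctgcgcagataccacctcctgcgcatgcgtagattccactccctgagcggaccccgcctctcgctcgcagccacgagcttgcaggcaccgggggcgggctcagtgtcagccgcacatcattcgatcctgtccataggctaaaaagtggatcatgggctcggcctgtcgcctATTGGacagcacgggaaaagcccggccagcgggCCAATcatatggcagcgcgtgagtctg
Msmo1: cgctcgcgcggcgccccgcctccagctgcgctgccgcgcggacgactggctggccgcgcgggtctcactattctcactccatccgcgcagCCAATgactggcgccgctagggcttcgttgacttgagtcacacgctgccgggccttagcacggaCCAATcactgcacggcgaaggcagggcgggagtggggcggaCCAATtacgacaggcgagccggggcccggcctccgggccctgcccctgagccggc
The letters CCAAT occurred 5 times in the window of Mvk, 2 times in that of Mvd and 3 times in that of Msmo1. Of the 17 list genes with a promoter in the table, 16 held the motif in at least 1 promoter, against 37.5% of the 27025 genes in the table (33.8% of 32536 promoters). The other lists searched also lay above that share, with 11 of 15 clock genes and 9 of 18 glucocorticoid genes. A match describes the letters and shows neither a binding site nor a cause of the difference between the groups.

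Other metabolic genes of astrocytes were also mostly lower. Of 26 genes of fatty acid activation, binding and oxidation, 21 were lower, 13 of them at an unadjusted edgeR p under 0.05. The list median was -0.14 (input 0.01). Lower at that threshold were 7.33% of all genes and 26.8% of genes enriched 2- to 4-fold in wild-type IP. In the wild-type mice this list had a median enrichment of 1.47 on the log2 scale. Cpt1a, which admits long-chain acyl groups to mitochondria, was at 149 to 174 CPM in vehicle and 134 to 140 CPM in MPTP. The acyl-CoA synthetase Acsl6 was at 706 to 815 CPM and 633 to 667 CPM, and the acyl-CoA dehydrogenase Acadvl at 97.1 to 102 CPM and 85.4 to 89.9 CPM. In amino acid metabolism 13 of 20 genes were lower with a median of -0.10. Gpt led this list, and the proline oxidase Prodh was at 114 to 138 CPM and 82.4 to 110 CPM.

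Of 89 tested nuclear genes of the respiratory chain 84 were lower and 5 higher in MPTP. Their median was only -0.08, and 13 (14.6%) were lower at an unadjusted edgeR p under 0.05, against 7.33% of all genes. In input 71 of the 89 were higher. Ndufc1, a complex I subunit, was at 22.8 to 24.8 CPM in vehicle and 17.1 to 20.9 CPM in MPTP. The list mean was -0.19 in MPTP replicate 2 and -0.0048 in replicate 4, and the median without replicate 2 was -0.04. Cytosolic ribosomal protein genes were split, 40 higher and 42 lower of 82, with a median of 0.00. Glycolysis and glycogen genes had a median of -0.03. In that list the glycogen phosphorylase Pygm (-0.42 ± 0.11) and Aldoc (-0.22 ± 0.076) overlapped between groups, and Hk2 was higher.

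Genes known to respond to glucocorticoids were mostly higher. Of 22 genes 16 were higher, 8 at an unadjusted edgeR p under 0.05 and 5 without overlap, and the median was 0.22 in IP and 0.16 in input. Over all genes tested, 3.9% were higher at that threshold and 1.98% lay wholly above. The fit with all 16 libraries called 4 of the 22 higher (0.158% of all genes) and DESeq2 called 6 (0.332% of all genes). Plin4 led the list. Zbtb16, a zinc finger repressor, was at 24.5, 30.0, 23.8 and 24.5 CPM in vehicle and 38.6, 51.2, 39.4 and 31.4 CPM in MPTP, with vehicle replicate 2 and MPTP replicate 4 closest to each other. Sgk1, a kinase that controls ion transport, was at 117, 166, 149 and 106 CPM and 252, 289, 156 and 216 CPM, where MPTP replicate 3 lay inside the vehicle range (log2 fold change 0.76 ± 0.19, adjusted p 0.183, edgeR). Fkbp5, a chaperone that dampens the receptor, was at 26.0 to 30.8 CPM in vehicle and 31.7, 48.0, 45.2 and 31.6 CPM in MPTP. The kinase Map3k6 (0.56 ± 0.13) and the EGF receptor inhibitor Errfi1 (0.24 ± 0.055) were also apart. The receptor gene itself, Nr3c1, was at 214 to 247 CPM and 200 to 222 CPM. The mean of the list was highest in MPTP replicate 2, at 0.43 above the vehicle mean, and lowest in replicate 3, at 0.08.

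The Plin4 promoter (chr17:56109783-56110032, minus strand, GRCm38.p6) is shown as that of the gene with the highest log2 fold change among those without overlap, with CCAAT matches in capitals.
Plin4: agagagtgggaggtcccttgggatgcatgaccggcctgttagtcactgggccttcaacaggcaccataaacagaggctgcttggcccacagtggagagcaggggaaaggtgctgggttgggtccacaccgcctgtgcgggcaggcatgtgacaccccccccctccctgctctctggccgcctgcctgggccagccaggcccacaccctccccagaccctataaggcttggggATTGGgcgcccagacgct
This window held 1 CCAAT and no AGAACA on either strand, the hexamer that the glucocorticoid receptor reads. That letter string occurred in 3 of the 18 list genes with a promoter and in 18.2% of all genes in the table. No match says only that these letters are not in this window.

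Clock genes overlapped with this pattern in part. Of 17 genes 12 were higher with a median of 0.08. An unadjusted edgeR p under 0.05 was seen for 2 (11.8%), both higher, against 3.9% of all genes. Per2 was at 30.4 to 38.4 CPM in vehicle and at 34.6, 54.1, 48.6 and 52.4 CPM in MPTP, so that replicate 1 alone lay among the vehicle libraries. Its log2 fold change was 0.46 ± 0.13 and became 0.59 without that replicate. Ciart, a repressor of the clock, was at 9.99 to 12.1 CPM and 12.4 to 17.1 CPM. Per1 overlapped, at 42.2 to 63.3 CPM and 56.5 to 66.2 CPM. The time of day of dissection is not given in the sources used here.

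Reactive and interferon genes differed widely among the 4 MPTP mice. Of 13 pan-reactive genes 12 were higher with a median of 0.45, but the list mean was 1.05 above the vehicle mean in MPTP replicate 1, 0.61 in replicate 2, -0.36 in replicate 3 and 0.14 in replicate 4, against -0.29 to 0.20 in the vehicle libraries. Without replicate 1 the median was 0.20. Gfap was at 1862, 2425, 1985 and 2115 CPM in vehicle and 3291, 2134, 1788 and 2095 CPM in MPTP. Only replicate 1 was above the vehicle range, and the log2 fold change of 0.15 ± 0.17 became -0.06 without it. Vim was at 217 to 265 CPM in vehicle and 380, 355, 231 and 279 CPM in MPTP, and Osmr, the oncostatin M receptor, at 40.4 to 47.3 CPM and 68.7, 61.2, 41.1 and 45.3 CPM. The protease inhibitor Timp1 (log2 fold change 1.04 ± 0.40) and the small heat shock protein Hspb1 (0.66 ± 0.26) overlapped between groups. The acute phase gene Lcn2, named after its values were seen, was at 9.02 and 5.96 CPM in MPTP replicates 1 and 2 and at 0.768 to 3.35 CPM in the other 6.

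All 11 tested A2-type genes were higher, with a median of 0.33 (0.22 to 0.46 when 1 library was left out). Ptx3, a pentraxin, was at 1.36 to 3.12 CPM in vehicle and 7.75, 4.94, 2.15 and 3.10 CPM in MPTP, and Cd109 was at 15.6 to 17.6 CPM and 25.8, 20.1, 14.9 and 21 CPM. The median of 12 A1-type genes was 0.17 with all libraries and -0.15 without MPTP replicate 1. Of 24 interferon genes 23 were higher, none at an unadjusted edgeR p under 0.05, and the median of 0.28 became -0.11 without that replicate. Cxcl10, an interferon-induced chemokine, was at 27.7, 42.5, 42.9 and 55.3 CPM in vehicle and 166, 60.8, 21.1 and 52.6 CPM in MPTP. Mx1 (16.2, 8.81, 3.48 and 7.71 CPM in MPTP), Isg15 (40.4, 21.7, 10.4 and 17.8 CPM) and the chemokine gene Ccl2 (26.3, 9.65, 2.88 and 6.41 CPM), the last named after its values were seen, had the same order over the 4 mice, replicate 1 first and replicate 3 last. The input libraries showed the interferon list 0.41 higher in MPTP in the median, with 24 of 24 genes higher. This input median included MPTP replicate 1, and its value without that replicate was not examined.

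Heat shock genes were highest in 1 other mouse. All 14 chaperones had a positive log2 fold change, with a median of 0.23. The list mean was 0.80 above the vehicle mean in MPTP replicate 4 and 0.17 to 0.22 in the other 3, against -0.12 to 0.25 in vehicle. The inducible Hspa1b was at 3.65, 2.90, 8.71 and 1.24 CPM in vehicle and 7.33, 5.90, 8.38 and 41.4 CPM in MPTP. Its log2 fold change was 1.96 ± 0.72 and 0.82 without replicate 4. Hsph1 was at 272 to 329 CPM in vehicle and 299, 342, 378 and 513 CPM in MPTP, and Hspa8 at 859 to 1072 CPM and 1068, 1088, 1132 and 1457 CPM. The chaperones of the endoplasmic reticulum behaved alike in that mouse: Hspa5 was at 878 CPM in replicate 4 and 404 to 634 CPM in the other 7 libraries, and Manf at 64.1 CPM against 36 to 45.5 CPM. Atf5, which drives the mitochondrial stress response, was lower with overlap (-0.44 ± 0.14), and the stress factor Atf3 was higher with overlap (0.78 ± 0.31).

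**Figure D5:**
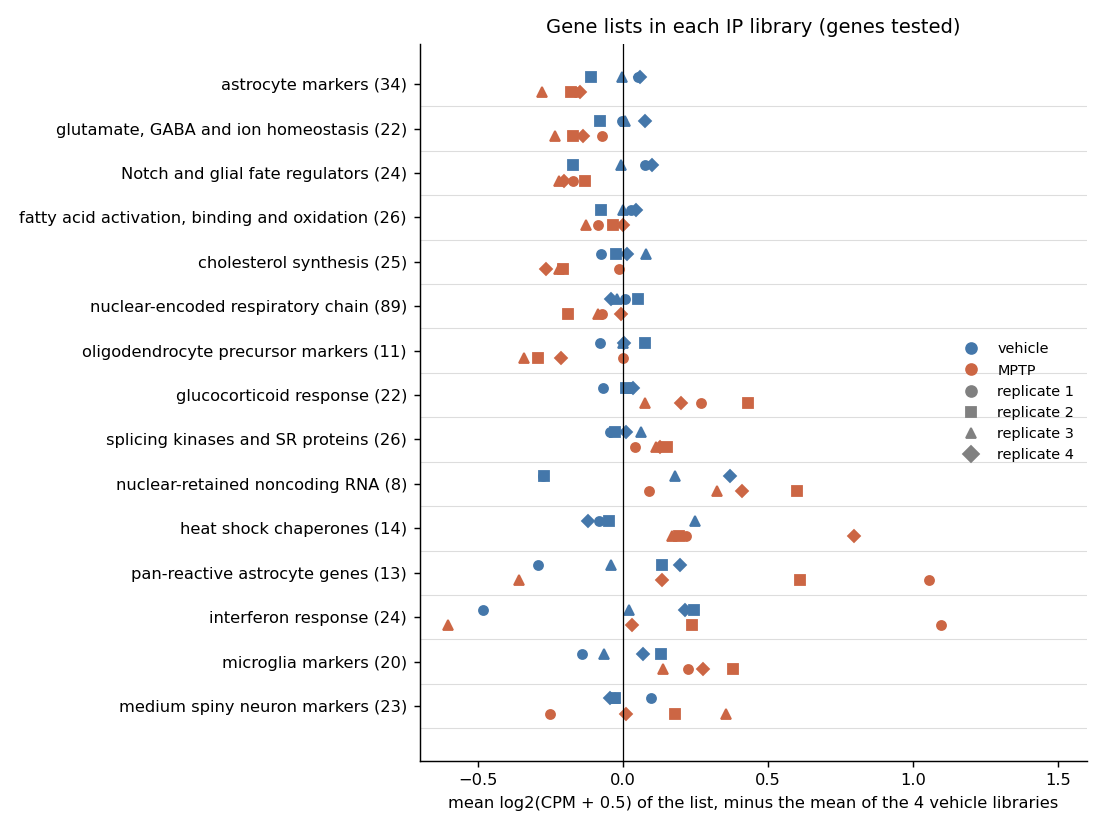
Mean log2(CPM + 0.5) of 15 gene lists in each IP library, minus the mean of the 4 vehicle libraries, with the number of genes tested in parentheses (blue, vehicle; orange, MPTP; symbol, replicate). Glucocorticoid-responsive genes lie higher in all 4 MPTP libraries and astrocyte markers lower, while the pan-reactive and interferon lists spread from -0.36 and -0.60 in replicate 3 to 1.05 and 1.10 in replicate 1.

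Genes that handle MPTP and dopamine were partly lower. Of 18 tested genes 8 were lower and 10 higher, and the median was 0.02, but 7 of the lower genes had an unadjusted edgeR p under 0.05. That was 38.9% of the list, against 7.33% of all genes and 26.8% of genes enriched 2- to 4-fold in wild-type IP. The median enrichment of the list there was 1.01 on the log2 scale. Maob, the enzyme that activates MPTP, was at 121, 101, 109 and 115 CPM in vehicle and 94.7, 101, 91.6 and 99.3 CPM in MPTP, a log2 fold change of -0.21 ± 0.062 (adjusted p 0.256, edgeR). Maoa was at 78.0 to 82.0 CPM and 68.0 to 74.2 CPM. Aldh1a1, which oxidizes retinal and dopamine aldehydes, was at 332, 333, 404 and 374 CPM in vehicle and 307, 281, 226 and 266 CPM in MPTP, and the flavin monooxygenase Fmo5 at 9.33 to 11.1 CPM and 6.95 to 9.10 CPM. The polyspecific cation transporter Slc22a3 was at 3.52 to 4.87 CPM and 3.16 to 4.86 CPM. The dopamine receptor Drd5 was apart (-0.28 ± 0.083), and Drd2 was not (0.04 ± 0.11).

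Of 10 listed transcripts of dopamine neurons 6 had enough reads to test. Slc6a3, the dopamine transporter, was at 0.104 to 0.254 CPM in vehicle and 0.137 to 0.349 CPM in MPTP, too low to show a loss. Th, tyrosine hydroxylase, was at 17.4 to 20.3 CPM and 15.6 to 18.4 CPM with overlap (log2 fold change -0.19 ± 0.073), and was itself higher in wild-type IP than in input by 1.28 on the log2 scale. Ddc was at 2.96 to 5.08 CPM and 5.17 to 6.69 CPM. These libraries gave no measure of the number of dopamine neurons.

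Regulators of glial fate were lower in 21 of 24 cases, with a median of -0.20 and 10 at an unadjusted edgeR p under 0.05. At that threshold 41.7% of the list and 7.33% of all genes were lower, as were 26.8% of genes enriched 2- to 4-fold in wild-type IP. The median enrichment of the list there was 1.13 on the log2 scale. Notch2 was at 161 to 211 CPM in vehicle and 134 to 144 CPM in MPTP, its target Hey1 at 101 to 111 CPM and 89.1 to 92.5 CPM, and the transcription factor Sox21 at 33.7, 24.6, 33.8 and 34.7 CPM and 20.3 to 23.5 CPM. In calcium and receptor signalling 18 of 26 genes were lower with a median of -0.05. Itpr2, the main IP3 receptor of astrocytes, was at 134, 129, 143 and 148 CPM and 116, 109, 98.2 and 99.5 CPM (log2 fold change -0.39 ± 0.068, adjusted p 0.0936, edgeR). The endothelin receptor Ednrb was at 534 to 564 CPM and 418 to 494 CPM, and the glutamate receptor Grm3 overlapped at 423 to 545 CPM and 362 to 432 CPM.

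Among proteins that act on synapses 15 of 17 were lower, with a median of -0.14. The phagocytic receptor Megf10 was at 190 to 201 CPM in vehicle and 150 to 178 CPM in MPTP, and the matrix proteoglycan Bcan at 646 to 802 CPM and 560 to 642 CPM. Thbs1, a synaptogenic thrombospondin, was at 1.29 to 2.16 CPM in vehicle and at 1.55, 5.03, 1.58 and 1.68 CPM in MPTP, and its log2 fold change of 0.56 ± 0.40 became -0.02 without MPTP replicate 2. Trophic factors were divided, 11 higher and 12 lower of 23. Hgf (-0.28 ± 0.080) and the GDNF receptor Gfra1 (-0.25 ± 0.081) overlapped, as did Gdnf (-0.07 ± 0.097) and Bdnf (0.07 ± 0.28).

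Splicing regulators and nuclear RNA were mostly higher. Of 26 splicing kinases and SR proteins 22 were higher with a median of 0.09, 7 at an unadjusted edgeR p under 0.05. At that threshold 26.9% of the list and 3.9% of all genes were higher. Besides Clk1 and Rsrp1, the U1 component Snrnp70 was at 47.5 to 56.7 CPM in vehicle and 56.4 to 68.0 CPM in MPTP, and Tra2a at 41.0 to 43.8 CPM and 45.6 to 55 CPM. Srsf5 was lower, with overlap (-0.22 ± 0.078). All 8 tested nuclear noncoding RNAs had a positive log2 fold change, with a median of 0.43. Neat1, the scaffold of paraspeckles, was at 4.52 to 7.22 CPM and 7.63 to 10.9 CPM, Malat1 at 1158 to 1910 CPM and 1732 to 2508 CPM, and Miat differed by 0.46 ± 0.20. These RNAs were lower in wild-type IP than in input by 2.15 on the log2 scale in the median. In the input libraries of MPTP and vehicle their median difference was 0.04, with 5 higher and 3 lower. Neat1 differed by -0.30 ± 0.16 in input, opposite in sign to IP. For Neat1 the adjusted p of the edgeR test of IP against input effect was 0.423.

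Markers of other cells also differed between the IP groups. Of 20 microglial markers 19 were higher, with a median of 0.32 and 5 at an unadjusted edgeR p under 0.05. Higher at that threshold were 3.9% of all genes and 15.9% of genes depleted over 4-fold in wild-type IP. That depleted class also had a median log2 fold change of 0.32. The median microglial marker was itself lower in wild-type IP than in input, at -4.27 on the log2 scale. Microglial markers summed to 72.5 to 81.3 CPM in vehicle and 75.2 to 89.1 CPM in MPTP. Tmem119 was at 0.927 to 1.02 CPM and 1.40 to 1.47 CPM, without overlap. Itgam (0.66 ± 0.25) and Cx3cr1 (0.26 ± 0.13) overlapped. Microglial markers differed by 0.09 in input. The 14 oligodendrocyte markers summed to 5799 to 8615 CPM in vehicle and 7139 to 8728 CPM in MPTP (median 0.21), with Mbp at 1208 to 1787 CPM and 1536 to 1881 CPM and Mal at 471 to 667 CPM and 601 to 736 CPM. The 14 pan-neuronal markers summed to 4934 to 5597 CPM and 5619 to 5809 CPM (median 0.14). Snap25 was at 1014 to 1199 CPM and 1132 to 1223 CPM, and the nuclear protein gene Rbfox3 differed by 0.29 ± 0.099. Medium spiny neuron markers summed to 7182 to 7880 CPM in vehicle and to 6054, 8492, 9917 and 7334 CPM in MPTP, and the opioid precursor Pdyn was apart (0.37 ± 0.099). Without MPTP replicate 3 the median of that list went from 0.09 to -0.01. The 10 tested ependymal markers summed to 127 to 251 CPM and 157 to 233 CPM.

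Precursor and interneuron markers lay on the other side. Of 11 oligodendrocyte precursor markers 9 were lower with a median of -0.21 and 5 at an unadjusted edgeR p under 0.05. At that threshold 45.5% of the list and 7.33% of all genes were lower. Pdgfra, the receptor that defines these cells, was at 88.1, 89.5, 99.4 and 98.0 CPM in vehicle and 78.4, 66.1, 54.7 and 58.3 CPM in MPTP, and the proteoglycan Cspg4 at 35.1 to 41.9 CPM and 34.9, 27.5, 22.7 and 25.2 CPM. MPTP replicate 1 was closest to vehicle for both. In input Pdgfra differed by -0.08 and the list median by 0.02. These markers were higher in wild-type IP than in input, by 0.89 on the log2 scale in the median. Of 13 interneuron markers 10 were lower, with sums of 1339 to 1653 CPM in vehicle and 1210 to 1398 CPM in MPTP, and Nos1 (-0.36 ± 0.11) and Slc5a7 (-0.25 ± 0.074) overlapped. Vascular markers had a median of 0.01, with Cldn5 (-0.41 ± 0.23), Vtn (-0.26 ± 0.12) and Pdgfrb (-0.25 ± 0.079) all overlapping. The part of other cells in the differences above was not tested.

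The IP differences were set against those of the input libraries, which hold the RNA of all striatal cells. In input no gene passed in edgeR either (0% called), with 502 genes higher (3.22%) and 787 lower (5.04%) at an unadjusted p under 0.05 (8.26% in all), while DESeq2 called 68. Of the 1105 genes lower in IP, 1090 were tested in input, and 672 of them were below 0 and 418 above 0 there, with a median of -0.02. Of the 587 genes higher in IP, 422 of 583 were above 0, with a median of 0.06. The difference between the IP and the input effect was tested for each of 15862 genes and passed for none in edgeR (0% called). At an unadjusted p under 0.05 it was higher for 397 (2.5%) and lower for 869 (5.48%), 7.98% in all, and DESeq2 called 55. For Tlcd1, with -0.40 in IP and 0.01 in input, the adjusted p of the edgeR test of that difference was 0.296, and for Plin4, with 1.45 and 1.21, it was 0.887. These tests had no term for the animal, although IP and input libraries are numbered as pairs. An edgeR fit with the animal as a block also called 0 genes. In MPTP replicate 2 that pairing is uncertain, because the titles name different animals.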

How the data were processed

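RNA-seq counts of 8 IP libraries (4 vehicle, 4 MPTP; totals of 34316801 to 61456591) were compared. The submitters' processing notes name STAR, HTSeq and mm10, without roles; versions and annotation are not given in the sources used here. Per the labels' protocols, the library kit was stranded and removed ribosomal RNA. The deposited table held whole read counts for 24060 symbols. The authors' deposited FPKM values were used only for levels between genes. Counts were tested with edgeR 4.0.16 in R 4.3.3 (filterByExpr with minimum count 10, TMM scaling, quasi-likelihood test, Benjamini-Hochberg adjustment, threshold 0.05), on the 8 libraries with group as the only term. The procedure was tested on simulated data. CPM are TMM-scaled; SE are those the test implies. The 4 rows that share a symbol are not named. Coordinates are from GENCODE M21 (mm10), in which 14374 of 15069 tested symbols matched.

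Members and lists were chosen with earlier results of these data known. Genes named are the 15 smallest p, the 15 largest increases and decreases (unadjusted p under 0.05, average log2 CPM of at least 1, groups apart), the 5 smallest p of each list, fixed markers and the 10 highest FPKM; not all are described, some are not reported here, and others are said to be chosen after their values were seen. Alternatives were other scalings, filters, DESeq2 1.42.0, limma 3.58.1, log2(FPKM + 1), a replicate block, 1 fit of 16 libraries and leaving out each library. Same-numbered vehicle and MPTP libraries did not deviate together. The input libraries of the MPTP experiment and the wild-type libraries of the SAPAP3 experiment served as comparisons.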

Additional observations from a re-analysis of the deposited data

Results flagged for a closer look

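Each of 334 groups of 4 values (the genes named and the lists, vehicle and MPTP separately) was examined for 1 library far from the other 3, by Dixon's ratio at its 95% critical value. This was so for 26 groups. No rate expected by chance applies to this count. Some genes, such as Prph and Postn, were named because 1 library stood out, and the groups are not independent. Vehicle replicate 2 was the distant library for 7 of the 26. It was low for Car8 (46.5 CPM, others 54.7 to 56.2), S1pr1 (802 CPM, others 910 to 928), Sox21 (24.6 CPM, others 33.7 to 34.7), Acsl6 (706 CPM, others 810 to 815) and Slc5a7 (208 CPM, others 245 to 248), and high for Zbtb16 (30.0 CPM, others 23.8 to 24.5) and Slc6a3 (0.254 CPM, others 0.104 to 0.129). Vehicle replicate 1 was high for Lama1 (6.08 CPM) and for the mean log2 level of medium spiny neuron markers (0.0956).

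MPTP replicate 4 was high for Hspa1b (41.4 CPM), Hspa8 (1457 CPM), Manf (64.1 CPM), Ddc (6.69 CPM), the heat shock list (0.797 on the log2 scale) and the ribosomal protein list (0.0702). MPTP replicate 2 was high for Thbs1 (5.03 CPM), Gdnf (8.92 CPM), Prph (17.5 CPM) and Postn (9.94 CPM). MPTP replicate 1 was high for Lama1 (4.61 CPM), Aqp4 (1444 CPM), Mvk (21 CPM) and Insig1 (125 CPM) and low for the immediate early genes (-0.0708). MPTP replicate 3 was low for Cbs (51.8 CPM) and the list of MPTP and dopamine handling (-0.0914).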

How the results depend on the processing

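The number of genes called in the IP comparison depended on the test. Against 0 in edgeR, DESeq2 called 302, the edgeR fit with all 16 libraries 289, and an adjusted p threshold of 0.1 gave 50; with 1 library left out the count was 0 to 65, highest without vehicle replicate 2. The number of genes higher at an unadjusted p under 0.05 was 587, and 418 to 998 with 1 library left out (998 without MPTP replicate 1); the number lower was 1105, and 775 to 1239. In input DESeq2 called 68 genes and leaving out 1 library gave 0 to 2, and for the difference between IP and input DESeq2 called 55. Same-numbered vehicle and MPTP libraries did not deviate together (correlations of -0.379 to -0.0467), so the numbers do not pair them. With the replicate block 378 genes were higher and 690 lower in IP, and 1 was called in input. Of 2158 refits of the genes named, 14 changed direction, all of genes near 0 or resting on 1 library. Clu was -0.0022 with every gene of at least 1 read, -0.014 in the fit with all 16 libraries and -0.041 to 0.058 with 1 library left out. With 1 library left out the ranges were -0.064 to 0.26 for Gfap, -0.040 to 0.12 for Drd2, -0.024 to 0.72 for Thbs1, -0.19 to 0.28 for Bdnf and -0.23 to 2.84 for Prph. The causes were not tested. The dopamine transporter Slc6a3, at 0.104 to 0.349 CPM, was too sparsely counted for a difference to be read.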
